A study of Mus musculus with 6 samples.

Results

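The genes described here are the keratins, the claudins and 13 further genes of epithelia, 85 of the 48795 gene identifiers in the count table. They were chosen by symbol: every keratin and claudin gene with a number (Krt and Cldn), except Cldn11, which marks oligodendrocytes, and Spint1, Spint2, St14, Cdh1, Epcam, Tjp3, Esrp1, Esrp2, Ovol1, Ovol2, Grhl1, Grhl2 and Grhl3. The set held 50 keratins, 22 claudins and the 13 others, and the measured values played no part in the rule. Libraries of polyadenylated RNA were made from hippocampi of mice on a C57BL/6J background, 3 libraries from wild-type mice (labelled WT) and 3 from double knockout mice (labelled ifKO, KO in the following). The KO mice carried floxed alleles of Kdm1a and Kdm5c and CreERT2, a recombinase that works only after tamoxifen and that the CamKIIα promoter limits to principal neurons of the forebrain. Recombination removes exons 5 and 6 of Kdm1a and exons 11 and 12 of Kdm5c. KDM1A and KDM5C are enzymes that take methyl groups off lysine 4 of histone H3, a mark of active promoters and enhancers. Mice of both groups received tamoxifen, at 2 to 3 months of age. The labels do not say whether WT mice carried the recombinase or the floxed alleles, and no group lacked only 1 of the enzymes. Whether each library is a mouse of its own is not stated either, and the p-values then describe the spread of these samples, which may be technical. Glia, interneurons and vessels keep both genes, and in whole tissue fewer cells of a type and less RNA per cell cannot be told apart.

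Keratins are the intermediate filament proteins of epithelia. They assemble as pairs of a type I and a type II protein, encoded in 2 gene clusters, on mouse chromosomes 11 and 15. Claudins are membrane proteins that form the strands of tight junctions between cells, and TJP3 is a scaffold beneath them. SPINT1 and SPINT2 are Kunitz-type inhibitors of membrane-bound serine proteases, above all of matriptase, the product of St14. E-cadherin (Cdh1) and EPCAM hold epithelial cells together, GRHL and OVOL transcription factors maintain the epithelial state, and ESRP1 and ESRP2 direct epithelial splicing. Neurons are not epithelial cells and use neurofilaments and other intermediate filaments. In brain, Cldn5 is the claudin of the blood-brain barrier endothelium, Cldn10 is found in astrocytes, and Cldn1, Cldn2 and Cldn3 are claudins of choroid plexus epithelium.

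Libraries held 19309576 to 19700249 counted reads. Levels are counts per 1000000 reads (CPM), scaled between libraries by TMM, and fold changes are KO over WT. Rose and fell are written only of genes with an adjusted p under 0.05 in edgeR's quasi-likelihood test, adjusted over all 16861 genes tested. Kdm1a, 1 of the targeted genes, fell from 73.7 ± 3.95 to 38.6 ± 1.29 CPM (mean ± SD, n = 3 each), and Kdm5c had a WT mean of 79.5 ± 2.97 CPM and a KO mean of 70.6 ± 4.67 CPM (edgeR adjusted p = 0.143). These are whole-gene counts, so they check the deleted exons only in part. All 8 listed markers of hippocampal principal neurons were detected. Some markers of tissue at the hippocampal border stood high in KO replicates 1 and 3. Ttr, the defining transcript of choroid plexus, measured 58.9, 1.60 and 55.9 CPM in KO replicates 1, 2 and 3 and 5.96 to 19.1 CPM in WT. The 10 leptomeningeal and fibroblast markers summed to 105 to 123 CPM in WT and to 98.2 to 201 CPM in KO, with the lowest KO sum in replicate 2. Values in KO replicate 2 are therefore pointed out beside the main results.

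Of the 85 genes, 26 had enough reads for the test, and 9 of these rose and 0 fell. Among all tested genes 6.95% passed in either direction, 5.9% rose and 1.05% fell. At an unadjusted p under 0.05 in edgeR's test 14 of the 26 were higher and 1 was lower. The share of all tested genes at this unadjusted threshold was not counted, and the shares above are for adjusted p. By adjusted p, DESeq2 and limma-voom also gave 0 that fell. The 9 were Spint1, Krt9, Cldn3, Spint2, Tjp3, Krt2, Krt77, Krt1 and Krt12. The median log2 fold change of the 26 was 0.60, against -0.01 over all tested genes, and 21 of the 26 were above 0, against 48.2% of all tested genes. In 13 of the 26 every KO library lay above every WT library, and in 1, Cldn12, every KO library lay below, against 14% and 11.2% of all tested genes. A gene nearly silent in WT could reach the test only through high KO values, so these shares describe the 26 and say nothing of the other 59. Of those 59, 17 had no read in any library, 23 had 1 to 9 reads over the 6 libraries and 19 had 10 or more. By class, 5 of 11 tested keratins, 1 of 8 tested claudins and 3 of 7 of the other tested epithelial genes rose. Leaving out 1 library gave 7 to 10 risen genes of the set, and using KO replicate 2 as the only KO library gave 6, all among the 9, with Tjp3, Krt77 and Krt12 lost.

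**Figure D1:**
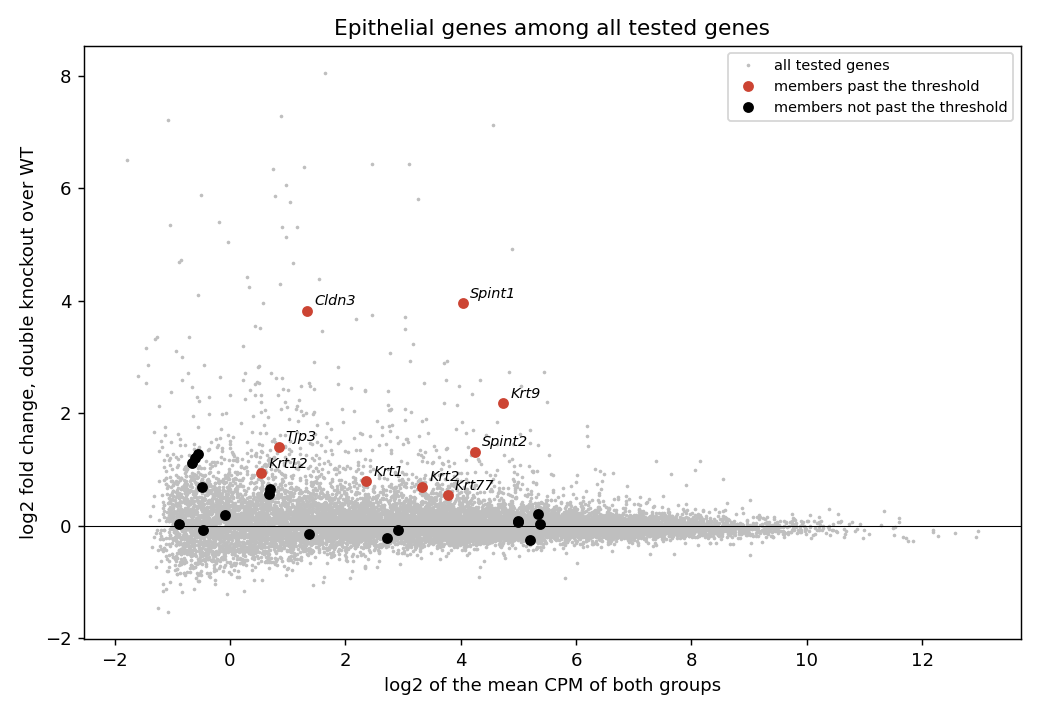
Each grey point is 1 of the 16861 tested genes, placed by the log2 of its mean CPM over both groups (x) and its log2 fold change, KO over WT (y); the 26 tested epithelial genes are drawn as large points, red with names where they rose. Spint1 and Cldn3 lie near 4 on the log2 scale, and the 17 black points, which did not pass the threshold, lie between -0.26 and 1.28.

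The protease inhibitor gene Spint1 had, with the claudin gene Cldn3, the greatest fold change of the tested members. Their intervals overlap, and without WT replicate 1 the log2 fold change of Cldn3 (4.01) was above that of Spint1 (3.90). Spint1 (ENSMUSG00000027315, chromosome 2, 119237362 to 119249527, plus strand, GRCm38) measured 1.84, 2.04 and 2.08 CPM in the WT libraries and 28.9, 31.9 and 31.5 CPM in the KO libraries. The groups were far apart and each was narrow. It rose 15.5-fold (log2 fold change 3.95, 95% interval 3.70 to 4.20, edgeR adjusted p = 8.25e-11), and KO replicate 2 held the highest value. The related inhibitor gene Spint2 (ENSMUSG00000074227, chromosome 7, 29256323 to 29281912, minus strand) was already present in WT at 12.2, 9.66 and 10.9 CPM and measured 28.4, 28.2 and 24.9 CPM in KO. It rose 2.48-fold (95% interval 2.13 to 2.89, edgeR adjusted p = 1.31e-06), again with no overlap. Per kb of exon, which allows levels of different genes to be compared, WT tissue held 0.717 CPM of Spint1 and 2.40 CPM of Spint2, while KO tissue held 11.1 and 5.96. By this measure the order of the inhibitors was opposite in the 2 groups, with no overlap between their library values in either. The lengths were those of all annotated exons together, 2767 bases for Spint1 and 4556 for Spint2. Which transcripts the tissue made was not determined, and in CPM the 2 genes lay close together in KO. St14, the gene of the protease that both inhibit, was far lower, at 0.260 to 0.575 CPM in WT and 0.659 to 1.22 CPM in KO. All KO values of St14 lay above the WT values, and the fold of 2.42 (95% interval 1.37 to 4.27) did not pass the threshold (edgeR adjusted p = 0.0637, and 0.0392 with no filter on low counts).

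The sequence before the start of both inhibitor genes was rich in CpG, the dinucleotide at which promoter methylation occurs and which marks the promoters of widely expressed genes. The 250 bases before the RefSeq start are printed 5′ to 3′ on the gene's strand, with CpG in capitals, to set these promoters beside those of the keratins further on. They lie at chr2:119237110-119237359 (plus strand) and chr7:29281978-29282227 (minus strand) of GRCm38.p6.
Spint1: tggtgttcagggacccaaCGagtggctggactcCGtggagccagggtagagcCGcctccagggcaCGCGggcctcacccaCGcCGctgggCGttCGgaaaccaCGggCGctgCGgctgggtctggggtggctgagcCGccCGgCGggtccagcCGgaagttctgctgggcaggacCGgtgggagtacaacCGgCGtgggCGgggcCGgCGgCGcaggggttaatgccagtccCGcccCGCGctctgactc
Spint2: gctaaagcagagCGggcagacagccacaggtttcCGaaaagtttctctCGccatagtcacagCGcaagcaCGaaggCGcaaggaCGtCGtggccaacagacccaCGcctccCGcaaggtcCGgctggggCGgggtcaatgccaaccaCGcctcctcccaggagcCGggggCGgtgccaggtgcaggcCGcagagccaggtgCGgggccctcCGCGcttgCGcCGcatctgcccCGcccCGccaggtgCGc
Spint1 had 26 CpG and Spint2 had 24, at percentiles 90.9 and 88.7 (ranks averaged over ties) of the 32851 promoters in the RefSeq table, of which the median had 6. For each of these windows 5 motifs were searched on both strands: CAGGTG, the E-box that ZEB and SNAI repressors of epithelial genes bind, AACCGGTT, the site of GRHL factors, GGGCGG, the GC box, TATAA, the core of a TATA box, and CACGTG, another E-box. Spint2 held CAGGTG 3 times, starting 74, 55 and 9 bases before the start. A window of this length held it at least once in 17.2% of all promoters and at least 3 times in 0.25%. Spint1 held no CAGGTG, and both held GGGCGG 3 times, which 8.47% of all promoters did at least. AACCGGTT was in 0.1% of all promoters and in 0 of the 71 windows of the 60 set members found in the table. A match of letters is a description and not a binding site.

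Genes next to the inhibitors were examined after the values had been seen. Each inhibitor gene has a PPP1R14 gene, for an inhibitor of the phosphatase PP1, next to its start. Ppp1r14d, 7.5 kb before Spint1, was counted once in WT and in 21 reads in KO. Scaled by depth, the ratio was 21.0 (95% counting interval 3.38 to 869). Ppp1r14a, 7.4 kb from Spint2, had a WT mean of 7.82 ± 1.46 CPM and a KO mean of 15.0 ± 1.93 CPM and rose (log2 fold change 0.94, SE 0.140, edgeR adjusted p = 0.000659). On the other side of Spint1, Rhov did not pass (log2 fold change -0.21, edgeR adjusted p = 0.534). On the other side of Spint2, 2200002D01Rik had 7 reads in WT and 9 in KO, too few for the test. Such intervals hold counting error alone.

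Among the 8 tested claudins Cldn3, a sealing claudin of many epithelia, was the one that passed the threshold. The abundant Cldn5 and Cldn10 had groups that overlapped, and the groups of Cldn12, also abundant, did not. Cldn3 (ENSMUSG00000070473, chromosome 5, 134986214 to 134987472, plus strand) measured 0.408, 0.261 and 0.312 CPM in WT, that is 19 reads over the 3 libraries, and 4.03, 5.31 and 4.82 CPM in KO, 277 reads. No KO value came near a WT value, and the highest was again in KO replicate 2. Ttr was lowest in that library, and the part of choroid plexus tissue in the Cldn3 values was not tested. It rose 14.1-fold (95% interval 9.66 to 20.7, edgeR adjusted p = 3.14e-07). Its neighbour Abhd11, at 15.4 CPM in WT and 14.9 CPM in KO, gave no such difference (edgeR adjusted p = 0.834). The neighbour on the other side, Cldn4, had 1 read in WT and 6 in KO, too few for the test. Its ratio of 6.01 had a 95% counting interval of 0.729 to 276, which held both 1 and the fold of Cldn3. Wbscr25, which shares 40 bases of exon with Cldn3 on the other strand, measured 0.570 and 0.545 CPM.

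Tjp3, the scaffold (zonula occludens) protein that binds claudin tails, measured 0.867, 1.10 and 0.989 CPM in the WT libraries and 2.60, 2.16 and 3.04 CPM in KO. It rose 2.64-fold (95% interval 1.87 to 3.71, edgeR adjusted p = 0.00141), and without KO replicates 1 and 3 the log2 fold change was 1.13 and the call was lost (edgeR adjusted p = 0.15). Its neighbours Pip5k1c, 1.4 kb away, and Mrpl54 did not pass (edgeR adjusted p = 0.984 and 0.733).

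The blood-brain barrier claudin Cldn5 was at 33.6, 27.3 and 32.7 CPM in the WT libraries and at 28.1, 35.3 and 34.5 CPM in the KO libraries, with overlapping groups. The log2 fold change was 0.06 (95% interval -0.15 to 0.28). Of the 12 other endothelial markers 0 rose and 0 fell, and their sum was 362 to 390 CPM in WT and 381 to 417 CPM in KO. Cldn10, found in astrocytes, ranged from 25.7 to 37.8 CPM in WT and from 29.6 to 34.4 CPM in KO (log2 fold change 0.08, 95% interval -0.17 to 0.33), where 0 of 6 astrocyte markers passed (2 were higher without WT replicate 3) and their sum was 4200 to 4522 CPM in WT and 4568 to 4648 CPM in KO. Cldn12, a claudin found in brain and other tissues, was the only tested member with every KO library below every WT library. It measured 42.8, 41.5 and 36.6 CPM in the WT libraries and 35.3, 33.3 and 32.6 CPM in KO. The fold of 0.837 (95% interval 0.747 to 0.938) did not pass (edgeR adjusted p = 0.0645), though it did without WT replicate 3 (0.0120).

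Claudins of the choroid plexus and other epithelia were scarce. Cldn1 ranged between 1.25 and 4.18 CPM in WT and between 1.91 and 3.01 CPM in KO, and Cldn2 between 0.209 and 0.968 and between 0.507 and 1.08 CPM, with groups that overlapped. Cldn1 was 3.01, 1.91 and 2.43 CPM in KO replicates 1, 2 and 3, lowest where Ttr was lowest, and 4.18, 2.77 and 1.25 CPM in the WT libraries. Cldn2 was 1.07, 1.08 and 0.507 CPM in the KO libraries, an order other than that of Ttr, and 0.968, 0.209 and 0.468 CPM in the WT libraries, the order of Ttr. Cldn23 measured 0.261 to 0.561 CPM in WT and 0.761 to 0.979 CPM in KO without overlap, a fold of 2.17 (95% interval 1.28 to 3.69) that did not pass (edgeR adjusted p = 0.0825). Cldn19, a claudin of Schwann cells and kidney, measured 0.520 to 0.888 CPM in WT and 0.670 to 0.714 CPM in KO.

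**Figure D2:**
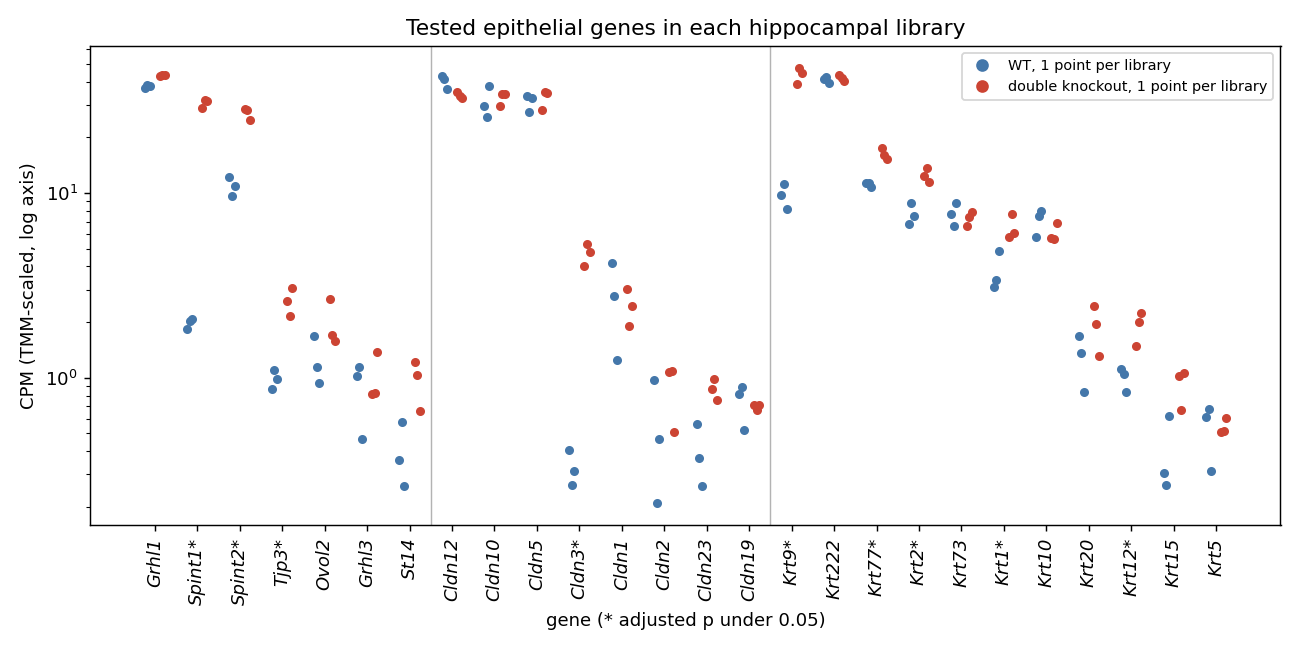
Points show the TMM-scaled CPM (log axis) of each tested gene in each of the 3 WT (blue) and 3 KO (red) libraries, with the other epithelial genes on the left, the claudins in the middle and the keratins on the right, and * on genes that rose. The KO points of Spint1, Cldn3 and Krt9 lie far above the WT points, whereas those of Cldn5, Cldn10 and Krt222 lie among them.

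Keratin genes showed their greatest change in Krt9, a type I keratin of palm and sole epidermis. Krt9 (ENSMUSG00000051617, chromosome 11, 100186781 to 100193246, minus strand) measured 9.74, 11.1 and 8.17 CPM in the WT libraries and 39.0, 47.6 and 44.4 CPM in KO. The groups were far apart, and KO replicate 2 was the highest. It rose 4.51-fold (95% interval 3.82 to 5.33, edgeR adjusted p = 2.41e-08). Per kb of exon Krt9 went from place 7 among the 26 tested genes in WT (3.75 CPM, libraries 3.17 to 4.31) to place 2 in KO (16.9 CPM, 15.1 to 18.5), behind Cldn5 (23.1 CPM, 19.9 to 24.9). In WT it could not be told apart from Krt77, Krt73, Krt10 and Krt2 (2.95 to 3.81 CPM per kb), whose library ranges overlap its own. The nearest keratin genes on either side stayed almost without reads: Krt14 had 1 read in WT and 1 in KO, and Krt19 had 6 and 13.

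Of the type II keratins, 3 neighbouring genes rose together. Krt2, Krt1 and Krt77 lie side by side within 59.0 kb of chromosome 15. Krt2 and Krt1 are keratins of the upper layers of epidermis and Krt77 is a keratin of sweat gland ducts. Krt2 measured 6.83, 8.78 and 7.55 CPM in the WT libraries and 12.4, 13.6 and 11.4 CPM in KO, a rise of 1.62-fold (95% interval 1.35 to 1.94, edgeR adjusted p = 0.00241). Krt1 measured 3.11, 3.40 and 4.84 CPM in the WT libraries and 5.76, 7.73 and 6.09 CPM in KO, a rise of 1.72-fold (95% interval 1.31 to 2.27, edgeR adjusted p = 0.0170). In all 3 genes the groups did not overlap. Krt77 measured 11.4, 11.4 and 10.7 CPM in the WT libraries and 17.5, 16.0 and 15.2 CPM in KO, a rise of 1.46-fold (95% interval 1.26 to 1.68, edgeR adjusted p = 0.00265). Krt1 lost its call without WT replicate 1 (edgeR adjusted p = 0.0780), WT replicate 2 (0.0702) or KO replicate 2 (0.0851), and with KO replicate 2 as the only KO library Krt77 lost its own (0.129). Since 0 of the 50-base words in their transcripts occur in a transcript of another gene, reads of this length or longer could not be split between them.

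The next gene in the same row, Krt73, a keratin of the hair root sheath that lies 8.3 kb from Krt2, was as abundant and gave no such difference. It measured 7.65, 6.63 and 8.85 CPM in the WT libraries and 6.63, 7.42 and 7.91 CPM in KO. The interval of its log2 fold change (-0.07, 95% interval -0.37 to 0.22) lay below the interval of Krt2 (0.43 to 0.95), although the difference between genes was not itself tested. On the far side of Krt77, Krt76 had no read. Krt10, the type I partner of KRT1 in epidermis, measured 5.81, 7.47 and 7.96 CPM in the WT libraries and 5.71, 5.62 and 6.90 CPM in KO (log2 fold change -0.22, 95% interval -0.54 to 0.10).

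Krt12, the keratin of corneal epithelium, passed the threshold narrowly, from 0.833 to 1.12 CPM in WT to 1.48 to 2.23 CPM in KO (1.90-fold, 95% interval 1.31 to 2.76, edgeR adjusted p = 0.0402). Its call was lost with DESeq2 (adjusted p = 0.128), limma-voom (0.0533), a replicate block (0.0633) and without any 1 library other than KO replicate 1 (edgeR adjusted p of 0.0739 to 0.186). The antisense gene A830036E02Rik shares 1007 of the 1852 exonic bases of Krt12, and it rose too, from 32.8 to 48.2 CPM (log2 fold change 0.56, edgeR adjusted p = 0.0051). The labels do not say whether the counting used strand, and reads of this pair cannot be told apart.

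The most abundant keratin in WT was Krt222, a truncated keratin-like gene, at 12.5 CPM per kb (libraries 12.0 to 12.9) in WT and 12.7 (12.3 to 13.2) in KO. Its CPM of 41.2, 42.6 and 39.6 in WT and 43.5, 41.7 and 40.5 in KO gave a log2 fold change of 0.03 with a 95% interval of -0.12 to 0.17. Krt15, of basal epidermis and hair follicle, measured 0.261 to 0.625 CPM in WT and 0.670 to 1.07 CPM in KO with no overlap but did not pass (edgeR adjusted p = 0.0860, and 0.0303 without WT replicate 3). Krt20, of gut epithelium, measured 0.833 to 1.68 CPM in WT and 1.32 to 2.45 CPM in KO, and Krt5, of basal epidermis, 0.312 to 0.679 and 0.510 to 0.609 CPM. Both overlapped, and 12.2% of the 50-base words of Krt5 also occur in Krt6a, Krt6b and other genes. Krt8 and Krt18, the pair of simple epithelia, had 14 and 28 reads over the WT libraries and 7 and 25 over the KO libraries.

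**Figure D3:**
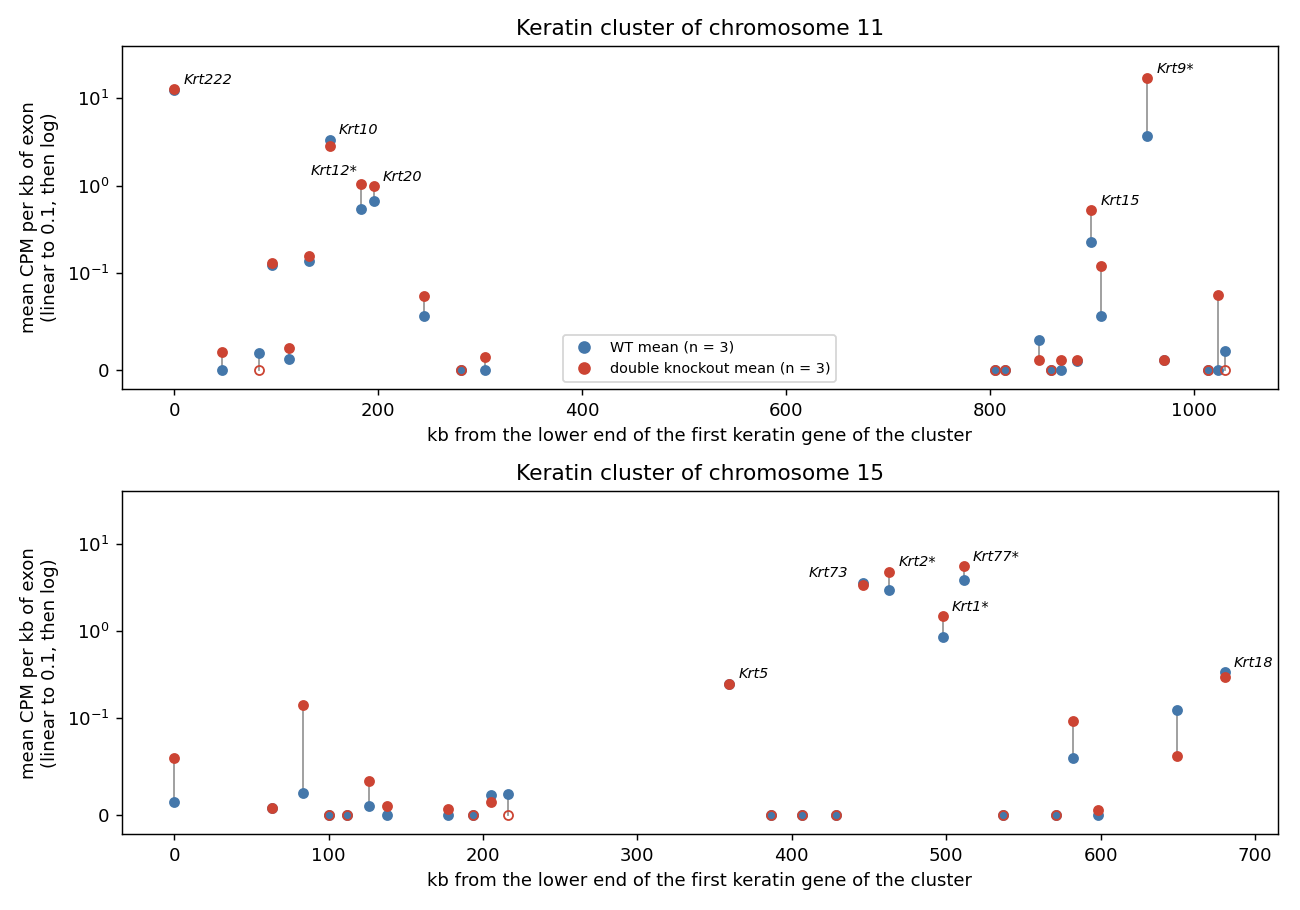
Mean CPM per kb of exon of every keratin gene (linear up to 0.1, then log) is plotted against its distance in kb from the first gene of the cluster, for chromosome 11 (25 genes) and chromosome 15 (25 genes), with WT means in blue, KO means in red (open red circles where the KO mean is 0 and WT is drawn beneath) and * on genes that rose. Krt9 and the neighbours Krt2, Krt1 and Krt77 stand above their WT values, and most keratin genes lie near 0 in both groups.

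Promoters of the keratins Krt9, Krt2 and Krt77 held fewer CpG than those of the inhibitors. The 250 bases before the RefSeq start of Krt9 (chr11:100193247-100193496), Krt2 (chr15:101818170-101818419) and Krt77 (chr15:101869706-101869955), all on the minus strand of GRCm38.p6, and of Cldn3 (chr5:134985964-134986213, plus strand) are printed with CpG in capitals, to be read beside the inhibitor promoters.
Krt9: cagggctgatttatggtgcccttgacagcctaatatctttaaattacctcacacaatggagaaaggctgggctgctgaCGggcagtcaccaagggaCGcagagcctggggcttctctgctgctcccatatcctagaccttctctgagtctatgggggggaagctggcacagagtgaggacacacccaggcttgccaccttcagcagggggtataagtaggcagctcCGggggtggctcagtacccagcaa
Krt2: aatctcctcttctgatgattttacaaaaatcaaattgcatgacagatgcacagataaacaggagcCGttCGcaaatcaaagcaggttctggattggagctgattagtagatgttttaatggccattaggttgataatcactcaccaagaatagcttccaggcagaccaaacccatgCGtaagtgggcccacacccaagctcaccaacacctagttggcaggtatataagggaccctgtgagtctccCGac
Krt77: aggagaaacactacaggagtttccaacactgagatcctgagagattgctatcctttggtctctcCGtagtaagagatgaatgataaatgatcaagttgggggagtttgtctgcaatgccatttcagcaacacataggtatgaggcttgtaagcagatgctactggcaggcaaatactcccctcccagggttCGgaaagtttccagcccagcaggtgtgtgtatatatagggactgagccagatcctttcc
Cldn3: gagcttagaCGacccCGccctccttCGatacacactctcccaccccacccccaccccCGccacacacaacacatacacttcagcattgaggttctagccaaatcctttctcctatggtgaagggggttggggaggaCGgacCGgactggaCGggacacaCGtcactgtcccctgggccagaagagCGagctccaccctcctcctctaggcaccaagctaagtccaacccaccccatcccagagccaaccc
The windows of Krt9, Krt2 and Krt77 had 3, 4 and 2 CpG, below the median of 6 over all promoters, that of Krt12, not printed, had 6, and that of Cldn3 had 9. Krt1 was not matched in the RefSeq table. TATAA began 40 bases before the start of Krt9 and 27 before that of Krt2, Krt12 held it 2 times, and 22.8% of all promoters held it somewhere in the window. CAGGTG began 40 bases before the start of Krt77, and the 2 RefSeq starts of Tjp3 each had it once. Of the 9 genes that rose, 8 had a window and Tjp3 had 2. Across these 9 windows the number of CpG ran from 2 to 26 with a median of 6, against a median of 5.5 in the 18 windows of tested genes that did not pass, so the genes that rose did not share a CpG-rich promoter.

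**Figure D4:**
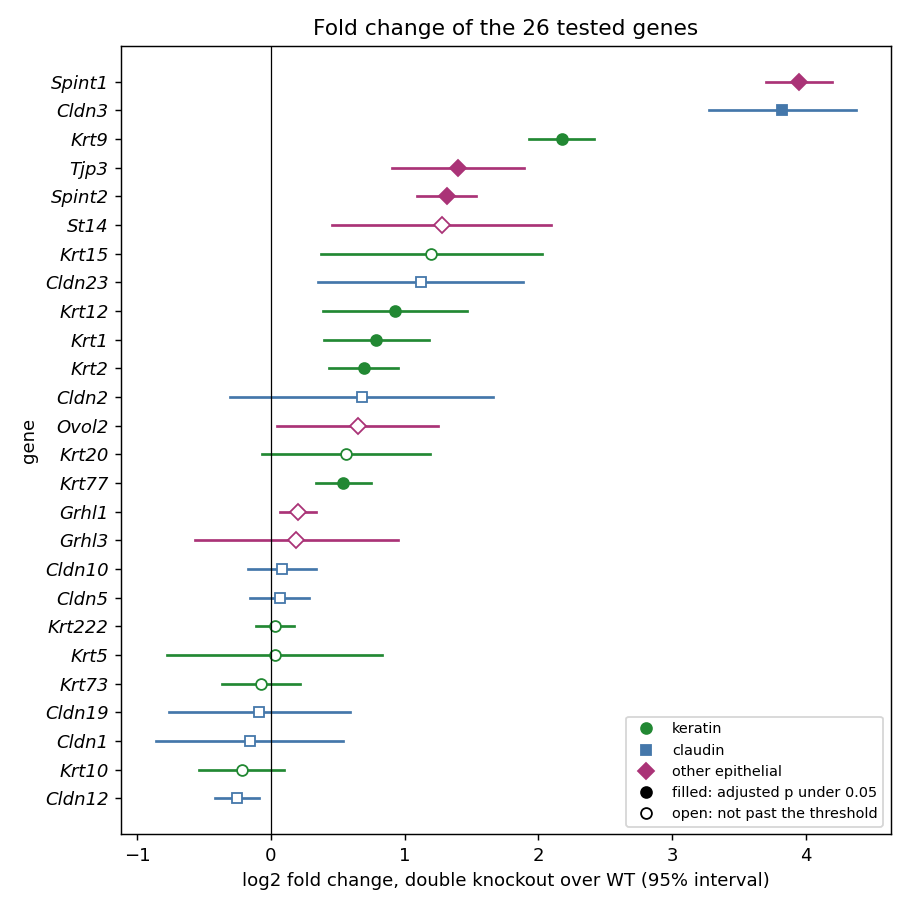
Log2 fold change, KO over WT, of the 26 tested genes with 95% intervals, ordered by size, with keratins as circles, claudins as squares, the other epithelial genes as diamonds and filled symbols for adjusted p under 0.05 in edgeR's test. Spint1 and Cldn3 lie near 4, Krt9 near 2, and the lowest value is that of Cldn12 at -0.26.

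Transcription factors that maintain epithelia were not among the genes that rose. Grhl1 was the abundant factor, at 36.8, 38.2 and 38.0 CPM in WT and 43.0, 43.6 and 43.3 CPM in KO. Its groups did not overlap, and its fold of 1.15 (95% interval 1.05 to 1.26) did not pass (edgeR adjusted p = 0.0767), except when scaled by library size alone (0.0481). Ovol2 measured 0.937 to 1.68 CPM in WT and 1.57 to 2.65 CPM in KO, and Grhl3 measured 0.468 to 1.15 and 0.816 to 1.37 CPM, both with overlap (edgeR adjusted p = 0.210 and 0.817). Grhl2 had 1, 2 and 6 reads in WT and 7, 10 and 11 in KO, without overlap. The splicing regulators were nearly silent: Esrp1 had 7 reads in WT and 3 in KO, and Esrp2 had 1 and 13, in a gene that shares 219 exonic bases with Nfatc3 on the other strand.

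The adhesion genes of epithelia had few reads. Cdh1 had 10, 1 and 3 reads in WT and 22, 0 and 8 in KO, so that KO replicate 1 was the highest library and KO replicate 2 the lowest. Its order within KO followed that of the choroid plexus and leptomeningeal markers, which were lowest in KO replicate 2, and their part in it was not tested. Epcam had 9 reads in each WT library and 22, 8 and 13 in KO.

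Below the filter, 19 members had 10 or more reads over the 6 libraries, and in 6 of them the counting interval of the ratio lay above 1 and in 1 below. Of all 4127 untested genes with as many reads, 7.92% lay above 1 and 2.45% below. Cldn7, a claudin of many epithelia, had 0, 1 and 1 reads in WT and 7, 5 and 6 in KO, a ratio of 9.01 (95% counting interval 2.16 to 80.1). Krt87, a hair keratin, had 1 read in each WT library and 4, 9 and 6 in KO (ratio 6.34, interval 1.87 to 33.5). For Esrp2 the interval of the ratio was 1.95 to 553, and the ratio was 4.40 for Krt80 (1.63 to 14.9), 3.11 for Grhl2 (lower bound 1.43) and 2.15 for Cdh1 (1.10 to 4.38). In the other direction Cldn8 had 5, 3 and 2 reads in WT and 0, 1 and 0 in KO (ratio 0.1, interval 0.00231 to 0.704). When all genes with a read were tested without the filter, Cldn7 passed (edgeR adjusted p = 0.0417), and Krt87 (0.0608), Krt80 (0.0950), Esrp2 (0.0965), Grhl2 (0.121), Cldn8 (0.186) and Cdh1 (0.512) did not. Summed over all 59 members without a test, libraries held 78 to 87 reads in WT and 100 to 142 in KO, of which KO replicate 2 had the fewest. The remaining 12 with at least 10 reads, among them Krt19, Krt26, Krt28, Krt79, Krt23, Cldn14, Cldn15 and Cldn20, had ratios between 0.429 and 2.17 with intervals that held 1.

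**Figure D5:**
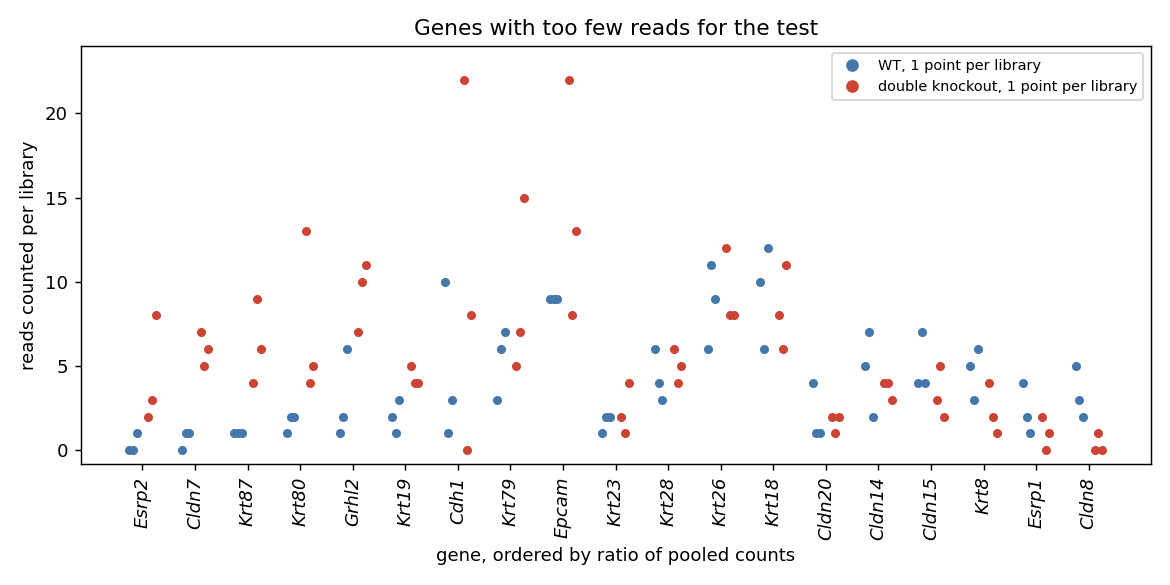
Reads counted in each WT (blue) and KO (red) library for the 19 members with at least 10 reads in all but too few for the test, ordered by the ratio of pooled counts. Cldn7, Krt87, Krt80, Grhl2, Esrp2 and Krt19 have every KO library above every WT library, and Cdh1 spans 0 to 22 reads within KO.

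Other genes of epithelial structure were taken from lists. The counts of each list stand beside 5.9% risen and 1.05% fallen among all tested genes. A listed gene nearly silent in WT could reach the test only through its KO reads, so these counts describe the tested genes alone. Of 15 genes of desmosomes and their plaques, 11 were tested, and 5 rose and 0 fell. Pkp1, a plakophilin of epidermis, had 2 reads in WT and 63 in KO, a ratio of 31.5 (95% counting interval 8.37 to 266). Ppl and Evpl, the plaque proteins periplakin and envoplakin, rose by 0.83 (SE 0.144, means 5.67 and 10.1 CPM) and 0.92 (SE 0.162, means 5.04 and 9.57 CPM) on the log2 scale, with edgeR adjusted p of 0.00212 and 0.00247. Dsp (desmoplakin, also a marker of dentate granule cells) had a log2 fold change of 0.43 and Jup (plakoglobin) of 0.26, and both lost their calls without KO replicate 2 or 3 and without other single libraries (edgeR adjusted p up to 0.128 and 0.148). Only 3 genes of this list rose when WT replicate 1 was left out, or KO replicate 2, or KO replicate 3, and with KO replicate 2 as the only KO library 1 did. Dsc3, a desmocollin, measured 6.58, 3.76 and 1.77 CPM in the WT libraries and 3.57, 1.29 and 1.57 CPM in the KO libraries. It did not pass (log2 fold change -0.91, edgeR adjusted p = 0.233) but was lower under a replicate block (0.0338) and without WT replicate 3 (0.0281). The list had a median log2 fold change of 0.29, against -0.01 over all tested genes.

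Of 29 tested genes of other tight and adherens junction proteins, 4 rose and 1 fell, with a median log2 fold change of 0.09. Marveld3, a tight junction protein, measured 0.204, 0.366 and 0.0520 CPM in the WT libraries and 3.21, 2.27 and 2.03 CPM in KO (log2 fold change 3.56, SE 0.400, edgeR adjusted p = 4.58e-05). Nectin4, an epithelial adhesion protein, rose from 8.12 ± 0.285 to 15.2 ± 0.666 CPM, and Nectin3, a synaptic adhesion protein of hippocampal neurons, fell from 38.3 ± 2.69 to 26.2 ± 0.831 CPM. Llgl2 (log2 fold change 1.00) and Pard3 (0.32), genes of cell polarity, lost the call in 5 and 4 of 13 alternatives, in which single libraries were left out and, for Llgl2, also DESeq2 was used (adjusted p up to 0.115 and 0.179, edgeR or DESeq2). The list had 2 rises without WT replicate 2 or KO replicate 3.

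Among 9 tested genes of membrane proteases and the HGF pathway 2 rose and 0 fell (median log2 fold change 0.15): Scnn1a, a subunit of the epithelial sodium channel that such proteases activate, from 11.4 ± 0.606 to 17.2 ± 1.31 CPM, and Tmprss6, the protease matriptase-2, from 0.745 ± 0.340 to 2.35 ± 0.668 CPM. Of 12 tested epithelial transcription factors and their repressors Zeb1 alone rose (log2 fold change 0.25, edgeR adjusted p = 0.0302, lost in 4 of 13 alternatives), and the median was 0.02. Trp63, of the same list, measured 1.94, 2.66 and 3.02 CPM in the WT libraries and 1.58, 1.44 and 1.47 CPM in KO, without overlap. It did not pass (log2 fold change -0.76, edgeR adjusted p = 0.0567) but was lower with no filter (0.039) and without WT replicate 1 (0.029). Of 17 tested epithelial membrane and basal proteins 3 rose and 0 fell, with a median of 0.26. These were Tmem30b, a flippase subunit (1 read in WT, 217 in KO, ratio 217 with a 95% counting interval of 38.6 to 8619), Cd24a, a surface glycoprotein of epithelia and of immature neurons (7.09 ± 0.303 to 25.6 ± 1.63 CPM), and Bspry (0.917 ± 0.488 to 2.33 ± 0.545 CPM), which lost its call in 3 of 13 alternatives.

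Intermediate filaments other than keratins moved both ways, with 4 of 15 higher and 1 lower (median log2 fold change 0.22). Prph, peripherin of peripheral neurons, measured 1.41 to 2.34 CPM in WT and 54.3 to 59.9 CPM in KO. Bfsp1, a filament protein of the lens, rose from 0.415 ± 0.108 to 2.43 ± 0.166 CPM. Synm (log2 fold change 0.41) and the astrocyte filament gene Gfap (0.41) rose, and Nefl, the light neurofilament, fell from 381 ± 23.0 to 306 ± 15.0 CPM.

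By their sums, markers of choroid plexus and of leptomeninges were higher in KO replicates 1 and 3 than in WT. The choroid plexus sum was above WT in KO replicate 2 as well, but there the marker Kl made up 55.1 of its 64.7 CPM. Ttr in that library was below every WT value, and a sum without Kl was not computed. The ependymal sum was 21.8 to 32.4 CPM in WT and 25.3 to 30.6 CPM in KO. The median log2 fold change was 0.58 in the choroid plexus list and 0.66 in the leptomeningeal list, against -0.01 over all tested genes. Of 8 tested choroid plexus markers Kl alone rose, from 22.0 ± 1.37 to 58.9 ± 3.45 CPM, with 59.9, 55.1 and 61.8 CPM in KO replicates 1, 2 and 3, lowest in the library with the lowest Ttr. Ttr, Folr1, Clic6 and the other tested markers of the list did not pass, and the summed list was 36.4 to 51.5 CPM in WT and 64.7 to 132 CPM in KO. In ependyma 0 of 7, in leptomeninges and fibroblasts 0 of 10, in microglia 0 of 5, in interneurons 0 of 6 and in erythrocytes 0 of 3 tested markers passed edgeR's test. The leptomeningeal count was 6 higher without KO replicate 2, 5 with no filter and 3 under a replicate block. Ttr passed as higher without KO replicate 2 and with no filter, and as lower with KO replicate 2 as the only KO library. Without KO replicate 1, 2 of 5 microglial markers were higher, and without WT replicate 3, 2 of 3 erythrocyte markers. Of 7 oligodendrocyte markers Mbp rose (log2 fold change 0.25, edgeR adjusted p = 0.0126), a call lost without KO replicate 2 or 3, and the sum of the list was 4831 to 5198 CPM in WT and 5337 to 6003 CPM in KO. The part of these markers in the results was not tested. Of 8 principal neuron markers Dsp rose and Neurod6 fell. No listed marker was at 0 in all 6 libraries. In KO replicate 2, where Ttr and the leptomeningeal sum were lowest, Spint1, Krt9, Cldn3, Krt2 and Krt1 had their highest values of any library. Spint2 and Krt77 were highest in KO replicate 1 and Krt12 and Tjp3 in KO replicate 3, and Tjp3 was lowest of the KO libraries in replicate 2.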

How the data were processed

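Counts were deposited by the authors as raw whole numbers per Ensembl gene, 1 column per library. The submitters' processing notes name cutadapt 1.18, HISAT2, HTSeq 0.11.1 and the build GRCm38 (mm10). Annotation release and strand setting: not given in the sources used here. Symbols, positions and exon lengths came from GENCODE M21 (GRCm38), which left 360 identifiers unmatched, and promoter sequences from RefSeq (GRCm38.p6). Genes were filtered with filterByExpr (minimum count 10, minimum total 15), scaled with TMM and tested with edgeR (quasi-likelihood, a model of group alone), adjusting p by Benjamini-Hochberg across the 16861 genes. Each SE is the absolute log2 fold change over the root of F. Levels per kb are CPM divided by the union of exon lengths. Ratios of pooled counts have exact binomial 95% intervals. Members past the threshold, at 1 CPM or more in a group, or with 10 or more reads were named, and of each list up to 6 genes past it. Neighbouring genes, Dsc3, Trp63 and markers followed across libraries were chosen after their values were seen. Members, lists and rules were chosen with earlier results of these data known. On simulated data of 16861 genes for this comparison, 60% of genes raised 1.5-fold, 90% raised 2-fold and 100% raised 4-fold were recovered. The changed genes were drawn at random from all levels, with the spread between libraries set by level alone. These shares were therefore not measured for genes of few reads. Also tried were DESeq2, limma-voom, RLE scaling, scaling by library size alone, no filter and a filter of 1 CPM in 3 libraries, a replicate block and leaving out each library; use of KO replicate 2 as the only KO library was added after seeing the data. Versions: edgeR 4.0.16, DESeq2 1.42.0, limma 3.58.1, R 4.3.3.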

Additional observations from a re-analysis of the deposited data

How the results depend on the processing

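With all libraries kept, the set had 8 risen genes with DESeq2, limma-voom and a replicate block, 9 with RLE scaling and at least 1 CPM in 3 libraries, 10 with library size alone and 11 with no filter. Leaving out 1 library gave 7 to 10 risen and 0 to 1 fallen genes of the set, the 1 being Cldn12 without WT replicate 3, and 48 to 323 fallen genes over the whole table. Fallen genes over the whole table numbered 279 with no filter. With KO replicate 2 as the only KO library, where that sample is assumed to vary like the WT samples, 424 genes rose and 16 fell. Leave-one-out log2 fold changes that changed sign ran from -0.03926 to 0.245 for Cldn10, -0.02406 to 0.1614 for Cldn5, -0.172 to 0.0346 for Krt73, -0.1102 to 0.4245 for Grhl3, -0.505 to 0.2859 for Cldn1, -0.0008656 to 0.0543 for Krt222, -0.2851 to 0.05947 for Cldn19 and -0.2419 to 0.2301 for Krt5, none of which passed in any alternative. With KO replicate 2 alone Grhl3 was at -0.09368 and Krt5 at -0.05378. Spint1, Krt9, Cldn3, Spint2 and Krt2 kept their calls in every alternative run. The cause of the changed calls was not tested. Same-numbered libraries had correlations of deviations of 0.005, -0.009 and -0.024, and libraries of unlike number had -0.124 to 0.128. With 3 libraries per group this check cannot decide whether the numbers pair the samples, and the labels do not say. Under the replicate block 8 genes of the set rose and 0 fell, and 960 rose over the whole table and 149 fell. At these depths 59 of the 85 genes had too few reads for a test.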
